A study of Mus musculus with 6 samples.

Results

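The genes described here are the Gstp glutathione transferases Gstp1, Gstp2 and Gstp3, the Gstp pseudogene Gstp-ps, the peroxiredoxin gene Prdx6 and its intronless copy Prdx6b, 6 of the 49993 genes of the deposited count table. They were taken by name, as genes and copies of similar sequence that may share counts, and they were selected on their fold change between the groups compared here, which was below 0 (lower in vitro). Their differences between the groups are therefore given as descriptions with no test. The study sequenced RNA of mouse blastocysts that were cultured in vitro from the zygote stage (in vitro group, 3 libraries) or had grown in the mother (in vivo group, 3 libraries). All females were injected with pregnant mare serum gonadotrophin (10 IU) and, after 48 h, human chorionic gonadotrophin (hCG, 10 IU), and were then mated, so the embryos of both groups come from superovulated females. Zygotes of the in vitro group were collected 19 to 21 h after hCG and grown at 37 °C under 5% CO2 in 20 ul drops of KSOM, a potassium-enriched embryo medium, while blastocysts of the in vivo group were taken by flushing the uterus at day 3.5. The sources used here do not give the mouse strain, the age of the females or how old the cultured blastocysts were when frozen. The labels name the tissue as blastocysts, the source as 1 inner cell mass per library and the cell type as embryonic stem cell, and these do not describe the same material.

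Glutathione transferases of the pi class join glutathione to electrophiles, and in mouse and human cells GSTP also binds the kinase JNK and the adaptor TRAF2 and so holds down stress kinase signalling. PRDX6 is a peroxiredoxin with a single peroxidatic cysteine that reduces hydrogen peroxide and phospholipid hydroperoxides and also has phospholipase and acyltransferase activities. Unlike the other peroxiredoxins it takes its electrons from glutathione, and GSTP is the partner that brings glutathione to the oxidised cysteine, so the products of these genes act in a common reaction.

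How far a count can be assigned to one copy depends on how alike the copies are, and the stretches below are shown for that reason. The first set gives bases 3 to 122 of the Gstp1 and Gstp2 coding sequence and the matching bases of Gstp-ps, 5′ to 3′, from GENCODE M21 transcripts on GRCm38. No coding window of this length holds more differences between Gstp1 and Gstp2, so it is not a typical stretch. Capitals mark bases that differ from Gstp1.
Gstp1: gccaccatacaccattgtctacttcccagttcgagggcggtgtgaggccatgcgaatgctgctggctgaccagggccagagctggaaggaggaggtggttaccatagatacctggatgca
Gstp2: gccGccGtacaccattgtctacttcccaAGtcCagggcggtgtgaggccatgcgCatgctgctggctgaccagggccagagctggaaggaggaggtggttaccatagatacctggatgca
Gstp-ps: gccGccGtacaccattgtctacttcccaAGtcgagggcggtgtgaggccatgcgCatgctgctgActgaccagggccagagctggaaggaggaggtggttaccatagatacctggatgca

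In this window of 120 bases Gstp2 and Gstp-ps each differed from Gstp1 at 6 positions. Over the whole coding sequence Gstp1 and Gstp2 differed at 12 of 633 bases (98.1% identity), and Gstp-ps differed from Gstp2 at 5 of 631 bases (99.2%) and from Gstp1 at 15 (97.6%). At the 12 positions that tell Gstp1 from Gstp2, Gstp-ps carried the Gstp2 base at 11 and the Gstp1 base at 1, and 4 of its bases matched neither. Read in the frame of Gstp2, the annotated pseudogene held 210 codons and its only stop codon was the last. The annotated model begins at coding base 3 and so does not hold a whole start codon.

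The longest identical run was 369 bases between Gstp1 and Gstp2, 342 bases between Gstp2 and Gstp-ps and 303 bases between Gstp1 and Gstp-ps. Of all 50-base windows along each transcript, 62.3% of those of Gstp1, 72.6% of those of Gstp2 and 71.1% of those of the Gstp-ps model occurred unchanged in another Gstp gene. With windows of 100 bases the shares were 52.8%, 63.5% and 51.1% in the same order. Gstp3 stood apart, with 74.3% identity to Gstp1 over 626 aligned bases, a longest identical run of 35 bases and no shared window of either length. Among these copies a read of either length can thus be placed on Gstp3, whereas many reads from Gstp1, Gstp2 and Gstp-ps match more than 1 of them.

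The next pair gives bases 320 to 439 of the coding sequences of Prdx6 and Prdx6b, a window in which the copies differ often. Capitals mark bases that differ from Prdx6.
Prdx6: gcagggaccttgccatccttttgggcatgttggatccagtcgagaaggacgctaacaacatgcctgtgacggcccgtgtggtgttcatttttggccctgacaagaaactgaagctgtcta
Prdx6b: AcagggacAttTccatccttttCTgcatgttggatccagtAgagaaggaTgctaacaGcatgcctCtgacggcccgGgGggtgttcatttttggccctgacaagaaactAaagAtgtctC

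This window held 14 of the 48 differences between Prdx6 and Prdx6b over 675 coding bases (92.9% identity). The differences fell on codon bases 1, 2 and 3 at 18, 12 and 18 positions, against 3, 4 and 5 positions for the 12 differences between Gstp1 and Gstp2. Prdx6b kept a frame of 225 codons with its only stop codon at the end. The longest run shared by Prdx6 and Prdx6b was 53 bases, and 0.299% of the 50-base windows of Prdx6 and 0.247% of those of Prdx6b occurred in the other, so the sequences of Prdx6 and Prdx6b can be told apart by nearly every read of that length.

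A further Prdx6 copy, Prdx6-ps2, is shown beside them. Its first stop codon in the Prdx6 frame lies beyond the stretch shown. The lines give coding bases 1 to 90, with capitals where a copy differs from Prdx6.
Prdx6: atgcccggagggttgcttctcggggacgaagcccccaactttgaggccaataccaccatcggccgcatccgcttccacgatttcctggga
Prdx6b: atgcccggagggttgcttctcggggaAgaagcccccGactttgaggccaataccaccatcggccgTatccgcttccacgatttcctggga
Prdx6-ps2: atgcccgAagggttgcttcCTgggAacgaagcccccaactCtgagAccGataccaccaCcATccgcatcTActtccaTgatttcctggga

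Here Prdx6b differed from Prdx6 at 3 positions and Prdx6-ps2 at 13. Over 653 aligned bases Prdx6-ps2 had 89.9% identity to Prdx6 and 63 gap bases, and read from the Prdx6 start it met 8 stop codons, the first at codon 120.

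The genes lie on 3 chromosomes of GRCm38, as the deposited table and RefSeq give them. Gstp1 (chr19:4035411-4037912), Gstp2 (chr19:4040288-4042221) and Gstp3 (chr19:4057470-4059605) form a cluster on the minus strand of chromosome 19 with 7 exon blocks each, covering 744, 752 and 1170 bases. Prdx6 (chr1:161240112-161251210, minus strand) has 6 exon blocks with 2754 bases. Prdx6b (chr2:80292470-80295358, plus strand) is a single block of 2889 bases annotated as protein-coding. Gstp-ps (chr1:192073736-192076444, minus strand) is a single block of 2709 bases annotated as a pseudogene, and it lies inside the span of Traf5, which is on the same strand.

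The counted Gstp-ps row is much wider than the copy itself. The GENCODE model of the pseudogene covers 631 bases, which is 23.3% of the row, so counts of the row can also come from sequence beyond the copy. Traf5, the surrounding gene for an adaptor of tumour necrosis factor receptors, had 0 counts in each in vitro library and 3, 0 and 0 counts in the in vivo libraries. All 4 Gstp rows also list exons on a fix patch of the assembly (for Gstp3 fewer bases than on the chromosome), as 2038 genes of the table do. Of those genes 47.3% had at least 10 counts, against 41.34% of the 47590 genes listed on a chromosome alone. The sources used here do not say how the authors' counting treated reads that match several copies or a patch.

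Promoters from the RefSeq table on GRCm38.p6 were held for 3 of the 6 genes, Gstp1 (chr19:4037863-4038162), Gstp2 (chr19:4042172-4042471) and Gstp3 (chr19:4059398-4059697). They are shown because the Gstp1 and Gstp2 levels ran together. The part that reads matching both genes have in that likeness was not tested. Each line runs on the minus strand from 250 bases before the gene's start to 50 after it. Capitals mark matches, on either strand, to TGANTCAGC (an antioxidant response element core as bound by NRF2 with small Maf partners), TGACNNNGC (the general form of that element) or GGGCGG (the GC box). The first 2 motifs overlap in part, since a sequence with C at the N of the first matches both.
Gstp1 promoter: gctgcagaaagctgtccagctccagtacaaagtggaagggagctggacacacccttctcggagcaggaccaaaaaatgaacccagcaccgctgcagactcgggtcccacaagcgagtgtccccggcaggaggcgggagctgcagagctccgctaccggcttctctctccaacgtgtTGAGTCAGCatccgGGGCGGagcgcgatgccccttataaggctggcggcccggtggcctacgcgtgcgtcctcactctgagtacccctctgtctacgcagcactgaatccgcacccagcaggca
Gstp2 promoter: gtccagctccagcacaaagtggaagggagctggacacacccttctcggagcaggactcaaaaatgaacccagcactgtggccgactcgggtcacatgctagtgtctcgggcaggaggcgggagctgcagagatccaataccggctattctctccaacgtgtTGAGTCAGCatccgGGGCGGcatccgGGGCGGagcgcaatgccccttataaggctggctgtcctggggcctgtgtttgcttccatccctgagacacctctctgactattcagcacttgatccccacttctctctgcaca
Gstp3 promoter: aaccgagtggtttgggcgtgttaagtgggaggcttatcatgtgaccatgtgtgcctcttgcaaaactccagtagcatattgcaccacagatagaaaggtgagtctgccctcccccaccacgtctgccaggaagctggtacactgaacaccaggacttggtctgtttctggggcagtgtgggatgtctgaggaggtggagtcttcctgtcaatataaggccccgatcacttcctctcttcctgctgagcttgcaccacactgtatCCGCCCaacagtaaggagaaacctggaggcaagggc

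Counted from the start of the gene, the letters TGAGTCAGC began at −74 in Gstp1 and at −89 in Gstp2, and no match to TGANTCAGC was found in the Gstp3 window. Of 32851 RefSeq promoters of the same length, 1.19% held a match to TGANTCAGC. GGGCGG occurred once in Gstp1, 2 times in Gstp2 and once on the opposite strand in Gstp3, against 35.7% of all promoters with at least 1 match. TGACNNNGC, found in 12.4% of promoters, had no match in these 3 windows, and TATAA, not in capitals (24.9% of promoters on either strand), began on the gene's strand at −40 in Gstp1, −43 in Gstp2 and −39 in Gstp3. Aligned over 282 bases, the Gstp1 and Gstp2 promoters had 86.17% identity. A match describes letters only, and the data hold no measurement of factor binding.

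The libraries differed in depth and in kind. Totals were 6918288, 12735551 and 9212405 counts in vitro and 9174789, 10240704 and 17643429 counts in vivo. The share of ribosomal Rn18s-rs5 was 36.1%, 35.8% and 40.4% in vitro and 16.7%, 22.2% and 41.7% in vivo. In vivo replicate 3 had Spearman correlations across genes of 0.786 and 0.793 to the other in vivo libraries, while these had 0.942 with each other. Pairs of in vitro libraries had 0.789 to 0.848. With in vivo replicates 1 and 2, in vitro replicate 2 had 0.873 and 0.857. In vitro replicate 2 was the one library with almost no Y-linked counts. Summed levels of 13 trophectoderm markers were 1683 to 2779 CPM in vitro (CPM are counts scaled to a common library size) and 848 to 1741 CPM in vivo, with no marker at 0, although the labels name the inner cell mass. The sums of 11 primitive endoderm markers were 767 to 1137 CPM in vitro and 452 to 537 CPM in vivo, and those of 11 epiblast markers 1477 to 2160 CPM in vitro and 1899 to 2172 CPM in vivo. The 11 cumulus cell markers summed to at most 3.89 CPM in vitro and 3.37 CPM in vivo, with 8 at 0 in all libraries, and the 9 blood markers to at most 3.66 CPM in vitro and 5.39 CPM in vivo, with 6 at 0. The 10 markers of tract epithelium summed to 14.6 to 68.8 CPM in vitro and 12.6 to 48.4 CPM in vivo. In that list Ltf, Sprr2f and Lcn2 were at 0 in all libraries, and Wfdc2 reached 41.4 CPM in vitro and 24.3 CPM in vivo. Foxa2, also on the primitive endoderm list, reached 34.4 CPM in vitro and was at 0 in vivo, and Muc1 reached 2.65 CPM in vitro and 15.5 CPM in vivo. Oocyte markers reached 99.9 CPM in in vivo replicate 3, nearly all of it Mos, against at most 5.95 CPM in the in vitro libraries and 4.41 CPM in the other in vivo libraries. The part of these differences in the values below was not tested, and in bulk samples fewer cells of a type and less RNA per cell cannot be told apart.

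Among the transferases Gstp1, which encodes the main mouse pi-class enzyme, had 103, 218 and 134 counts in vitro and 540, 633 and 1141 counts in vivo. After scaling by the trimmed mean of M values (TMM), these were 18.1, 16.0 and 17.5 CPM in vitro and 42.4, 50.7 and 82.0 CPM in vivo. The in vitro libraries were nearly level with one another, in vivo replicate 3 was the highest, and the groups did not overlap. The log2 fold change, in vitro over in vivo, was −1.76 ± 0.40 (SE), so the in vivo level was 3.39 times the in vitro level. It was −1.43 without in vivo replicate 3.

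Gstp2, the transferase gene whose coding sequence is nearly that of Gstp1, had 113, 211 and 151 counts in vitro and 454, 654 and 1115 counts in vivo. Its levels were 19.8, 15.5 and 19.7 CPM in vitro and 35.6, 52.4 and 80.2 CPM in vivo. As for Gstp1, in vivo replicate 3 was the highest library and the groups did not overlap. The log2 fold change was −1.61 ± 0.42 (SE), a 3.06-fold higher level in vivo, and −1.26 without in vivo replicate 3.

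Gstp3, the more distant member of the cluster, was close to the limit of detection. It had 0, 2 and 0 counts in vitro and 14, 13 and 0 counts in vivo, or 0.147 CPM in in vitro replicate 2 and 1.10 and 1.04 CPM in in vivo replicates 1 and 2. A count of 0 allows up to 0.527 and 0.392 CPM in in vitro replicates 1 and 3 and up to 0.216 CPM in in vivo replicate 3, for counting error only. The groups overlapped, since libraries of both were at 0. Gstp3 did not pass the filter on low counts. Its summed counts of 2 in vitro and 27 in vivo gave a ratio of 0.108 in vitro over in vivo after scaling. The 95% exact counting interval was 0.0124 to 0.428, and it leaves out the spread between libraries of a group.

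The Gstp-ps row had the highest counts of the Gstp rows, 557, 1567 and 1097 in vitro and 7407, 8588 and 5549 in vivo. That was 97.8, 115 and 143 CPM in vitro and 581, 688 and 399 CPM in vivo. In vivo replicate 3, the highest library for Gstp1 and Gstp2, was the lowest of the in vivo libraries for Gstp-ps, and the groups did not overlap. The log2 fold change was −2.23 ± 0.33 (SE), a 4.68-fold higher level in vivo, and −2.41 without in vivo replicate 3. Because Gstp-ps shares long runs with Gstp1 and Gstp2, its counts are uncertain as a measure of transcription at the pseudogene.

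Prdx6, the peroxidase that GSTP reloads with glutathione, had 738, 1817 and 450 counts in vitro and 4689, 5284 and 3007 counts in vivo. The levels were 130, 134 and 58.8 CPM in vitro and 368, 424 and 216 CPM in vivo. In vitro replicate 3 was the lowest library and in vivo replicate 3 the lowest of its group, and the groups did not overlap. The log2 fold change was −1.65 ± 0.41 (SE), a 3.13-fold higher level in vivo. Leaving out in vitro replicate 3 gave −1.35, and leaving out in vivo replicate 3 gave −1.88.

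Prdx6b, the intronless copy on chromosome 2, had 127, 454 and 45 counts in vitro and 2353, 2990 and 610 counts in vivo. Its levels of 22.3, 33.4 and 5.88 CPM in vitro and 185, 240 and 43.9 CPM in vivo spread more widely, relative to their means, than those of Prdx6 in both groups. Replicate 3 was again the lowest in each group, and in vivo replicate 3 stood only a little above in vitro replicate 2, so the groups came close without overlapping. The log2 fold change was −2.92 ± 0.75 (SE), a 7.58-fold higher level in vivo, and the SE was the widest among the 5 fitted genes. Leaving out in vitro replicate 3 gave −2.48, and leaving out in vivo replicate 3 gave −3.36.

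**Figure D1:**
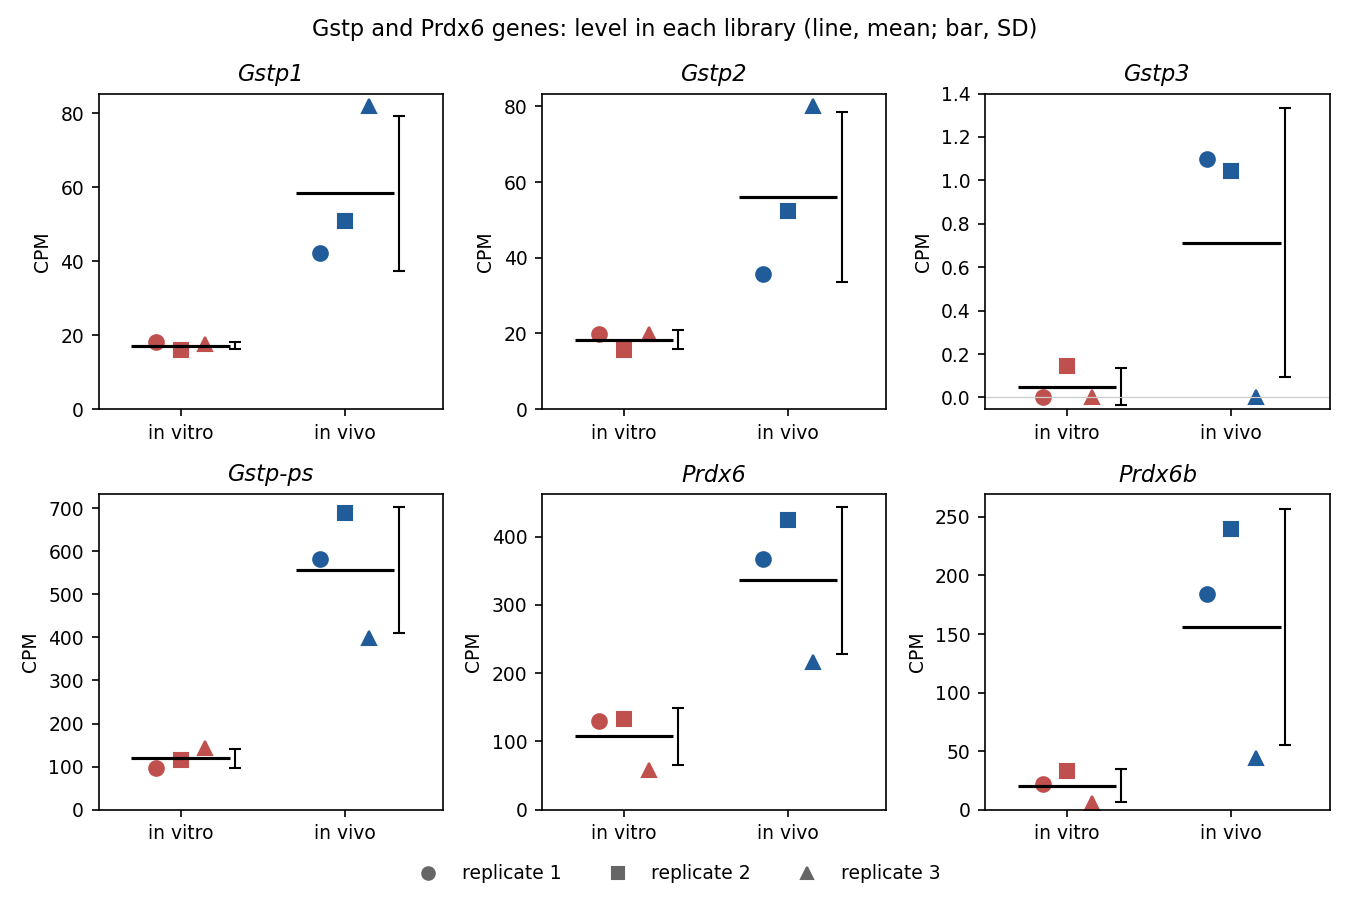
Level of each gene in CPM (on TMM-scaled totals, linear axes) in the 3 in vitro libraries (red) and the 3 in vivo libraries (blue), with marker shapes for replicates 1 to 3, a line at the group mean and a bar for the SD. In vivo replicate 3 (triangle) is the highest library for Gstp1 and Gstp2, at 82.0 and 80.2 CPM, and the lowest in vivo library for Gstp-ps, Prdx6 and Prdx6b.

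Summing copies removes the question of how counted reads were divided among them. It does not remove that of reads the counting may have left out or counted more than once. The 4 Gstp rows together had 773, 1998 and 1382 counts in vitro and 8415, 9888 and 7805 counts in vivo, or 136, 147 and 181 CPM in vitro and 660.0, 793 and 561 CPM in vivo. The Gstp sum averaged 154 ± 23.4 CPM in vitro and 671 ± 116 CPM in vivo (SD, n = 3 each), and the groups did not overlap. The log2 fold change of the sum was −2.12 ± 0.30 (SE). Prdx6 and Prdx6b together had 865, 2271 and 495 counts in vitro and 7042, 8274 and 3617 counts in vivo, or 152, 167 and 64.7 CPM in vitro and 552, 663 and 260.1 CPM in vivo. In both sums in vivo replicate 3 was the lowest of its group, and the Prdx6 sum had a log2 fold change of −1.94 ± 0.47 (SE). Other listed copies added little. Prdx6-ps2 had 1, 8 and 0 counts in vitro and 26, 20 and 5 counts in vivo, and the Gstp-like pseudogene Gm3266 and the Prdx6-like pseudogene Gm12293 had 0 counts in all libraries.

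Of the 6 genes, 5 passed the filter, and in each of these 5 every in vitro library was below every in vivo library. Such a separation in this direction was found for 10% of the 14301 genes tested, and a log2 fold change of −1 or lower, which these 5 genes also had, for 16.1%. The edgeR quasi-likelihood test with Benjamini-Hochberg adjustment called 0 of the 5 genes and 0% of all genes tested at an adjusted p of 0.05, while 1458 genes (10.2%) had an unadjusted p under 0.05. DESeq2 called all 5 lower in vitro, against 1.35% of 15796 genes with an adjusted p, and limma-voom with sample weights called Gstp-ps, Prdx6 and Prdx6b, against 0.273% lower over the table. With no filter on low counts edgeR called Gstp1, Gstp-ps, Prdx6 and Prdx6b lower, against 0.746% of 27882 genes. Since the genes were chosen for this contrast, nothing is read from these counts. The labels do not say whether the 3 libraries of a group had different mothers. The p-values thus set the group difference against only the spread between these samples, which may be partly technical.

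With 1 library left out, the DESeq2 calls changed over the whole table and, with them, among these genes. Without in vivo replicate 2 it called 34 genes lower in vitro over the table, and of the 6 genes only Gstp-ps. Without in vivo replicate 1 it called 76 lower, with Gstp1, Gstp2 and Gstp-ps among them. Without in vitro replicate 1 (149 lower) or in vitro replicate 3 (203 lower) Gstp1, Gstp-ps and Prdx6b were among them. Without in vitro replicate 2 (558 lower) or in vivo replicate 3 (463 lower) they included Gstp1, Gstp-ps, Prdx6 and Prdx6b. These calls use the contrast that the genes were selected on, and nothing is read from them.

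**Figure D2:**
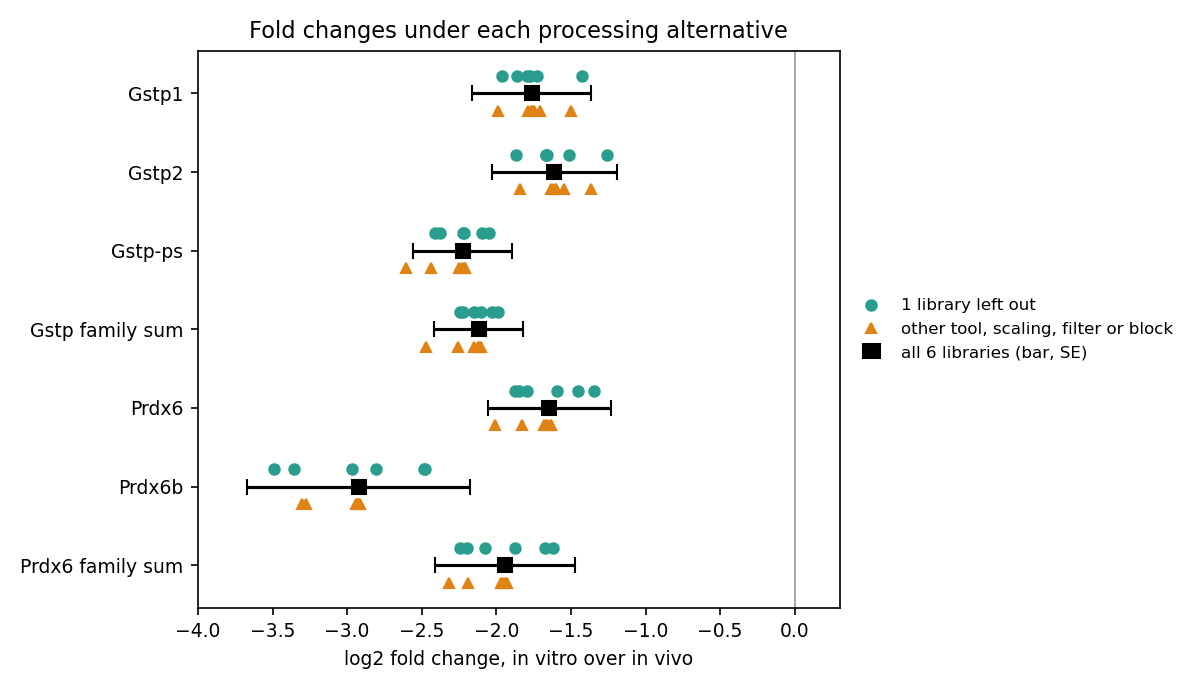
Log2 fold change, in vitro over in vivo, of the 5 fitted genes and the family sums, with black squares for the fit on all 6 libraries (bar, SE), teal circles for fits without 1 library and orange triangles for another tool, scaling, filter or replicate block. All points lie below 0, and those of Prdx6b spread the most, −3.49 to −2.48 when 1 library was left out.

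Per length of exon the order of the rows by group mean changed little between the groups. In CPM per kilobase of exonic bases on the chromosome, means in vitro were 43.8 ± 8.49 for Gstp-ps, 39.0 ± 15.3 for Prdx6, 24.4 ± 3.29 for Gstp2, 23.1 ± 1.44 for Gstp1, 7.10 ± 4.79 for Prdx6b and 0.0419 ± 0.0725 for Gstp3 (SD, n = 3). Means in vivo were 205 ± 54.0 for Gstp-ps, 122 ± 39.0 for Prdx6, 78.5 ± 28.1 for Gstp1, 74.6 ± 29.9 for Gstp2, 54.0 ± 35.0 for Prdx6b and 0.610 ± 0.529 for Gstp3 (SD, n = 3). Neighbours in this order had overlapping ranges, except for the step to Prdx6b in vitro and the step to Gstp3 in both groups. Prdx6b lay at 2.04 to 11.5 CPM per kilobase in vitro, below Gstp1 and Gstp2, and its range of 15.2 to 83.0 in vivo overlapped theirs. Within libraries the top of the order varied. Prdx6 was above Gstp-ps in in vitro replicate 1 (47.1 against 36.1) and in vitro replicate 2 (48.5 against 42.5). It was below Gstp-ps in in vitro replicate 3 (21.4 against 52.9) and in every in vivo library. The Gstp-ps value uses the full row of 2709 bases. The part that reads matching several copies or a patch have in the place of the Gstp rows was not tested.

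Shares within a library do not depend on the scaling of libraries. For Gstp1, Gstp2 and Gstp-ps they are shares of counts as the authors assigned them, and the part that the assignment of reads matching several copies has in them was not tested. Gstp1 made up 47.7%, 50.8% and 47.0% of the counts of Gstp1 and Gstp2 in vitro and 54.3%, 49.2% and 50.6% in vivo. These shares were close to equal in all libraries, and only the 95% exact binomial interval of in vivo replicate 1 (51.2% to 57.5%) left out 50%. The ratio of Gstp1 to Gstp2 counts thus stayed between 0.887 and 1.19 over the 6 libraries while the level of both genes differed between the groups.

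The Gstp-ps row took 72.1%, 78.4% and 79.4% of the Gstp counts in vitro and 88.0%, 86.9% and 71.1% in vivo. In vivo replicates 1 and 2 were above all in vitro libraries, but in vivo replicate 3 was the lowest of the 6, so the groups overlapped. The group means differed by −5.37 percentage points (in vitro minus in vivo), and by −10.8 points without in vivo replicate 3. The difference was −2.35 points without in vivo replicate 1, −2.94 points without in vivo replicate 2 and −3.09 points without in vitro replicate 1. Counts of Gstp-ps were 2.58, 3.65 and 3.85 times those of Gstp1 and Gstp2 together in vitro and 7.45, 6.67 and 2.46 times in vivo.

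Prdx6b took 14.7%, 20.0% and 9.09% of the Prdx6 and Prdx6b counts in vitro and 33.4%, 36.1% and 16.9% in vivo. In vivo replicates 1 and 2 again lay above all in vitro libraries, and in vivo replicate 3 (exact interval 15.7% to 18.1%) fell within the in vitro range, so the groups overlapped. The group means differed by −14.2 points, and by −20.2 points without in vivo replicate 3. In vivo replicate 3 thus had the lowest Gstp-ps share of the 6 libraries and a Prdx6b share within the in vitro range, together with the highest Gstp1 and Gstp2 levels.

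**Figure D3:**
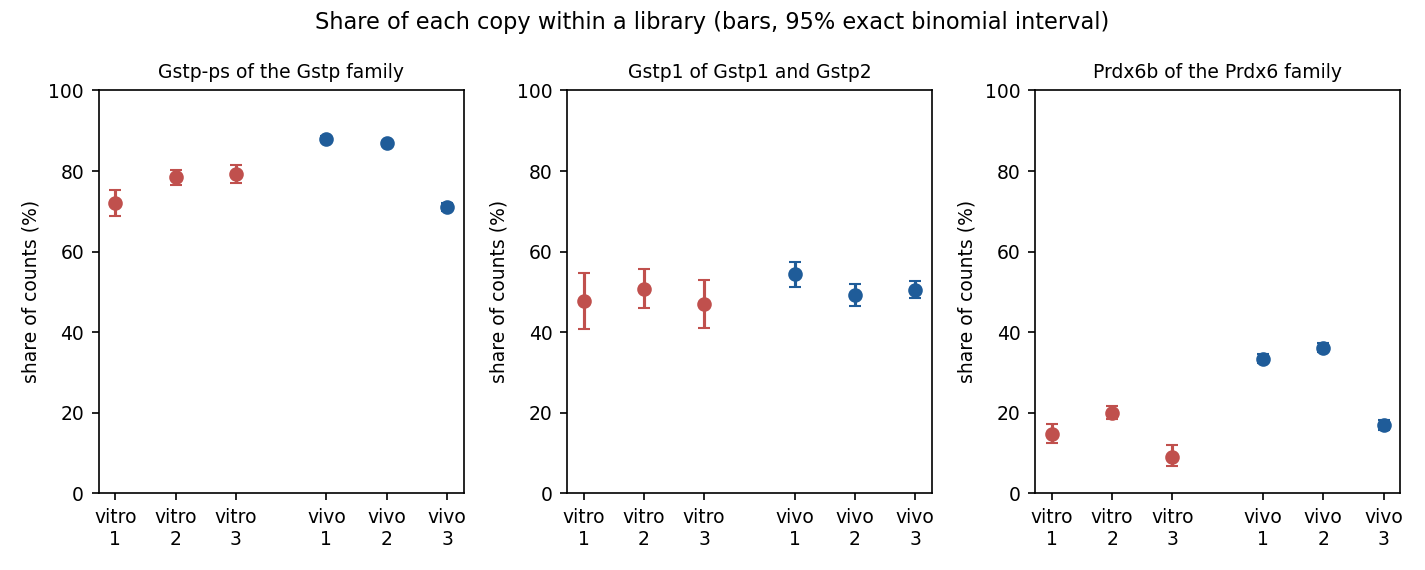
Share of each copy in percent of the counts of its family or pair, for in vitro replicates 1 to 3 (red, left in each panel) and in vivo replicates 1 to 3 (blue, right), with 95% exact binomial intervals, which cover counting error only. Gstp1 stays near 50% of Gstp1 and Gstp2 in all 6 libraries, while the shares of Gstp-ps and Prdx6b are highest in in vivo replicates 1 and 2.

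The balance between the Gstp and Prdx6 families did not separate the groups. Gstp counts were 0.894, 0.880 and 2.79 times the Prdx6 family counts in vitro and 1.19, 1.20 and 2.16 times in vivo. Replicate 3 was the highest in each group and the groups overlapped.

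Neighbouring genes gave the level around these rows. Of the 24 neighbours, 3 on each side of the Gstp cluster, Gstp-ps, Prdx6 and Prdx6b, 10 had 0 counts in all libraries and 8 had at least 10 counts in a library. Next to the Gstp cluster, Ndufv1, a subunit of mitochondrial complex I, averaged 58.6 ± 0.561 CPM in vitro and 71.9 ± 4.34 CPM in vivo (SD, n = 3 each), with a log2 fold change of −0.30 ± 0.30 (SE). Beside Gstp-ps, the predicted gene Gm32460 on the opposite strand had 16, 153 and 24 counts in vitro and 344, 296 and 52 counts in vivo, and Rcor3, a subunit of a histone demethylase complex, averaged 26.1 ± 16.0 CPM in vitro and 23.5 ± 15.3 CPM in vivo. Next to Prdx6b, Dnajc10, a disulphide reductase of the endoplasmic reticulum, averaged 28.5 ± 8.42 CPM in vitro and 20.8 ± 1.22 CPM in vivo (SD, n = 3 each). The other neighbours with counts were low, with means of 5.84 ± 3.19 CPM in vitro and 4.55 ± 4.10 CPM in vivo for Nudt8 and of 10.7 ± 11.6 CPM in vitro and 14.2 ± 5.23 CPM in vivo for Gm6185. Tex50 averaged 1.74 ± 2.76 CPM in vitro and 0.214 ± 0.370 CPM in vivo, and Gm13752 had 0 counts in vitro and averaged 1.37 ± 1.66 CPM in vivo.

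Genes with the most similar profile were ranked by the root mean square difference of centred log2 CPM over the 6 libraries, among 6555 genes. For Gstp1 the nearest gene was Gstp2, with a difference of 0.138 on the log2 scale, and near genes included Eif2b1 (a subunit of the translation factor eIF2B), Acer2 (a ceramidase), Aatf (a transcription cofactor) and Upp1 (uridine phosphorylase), at 0.178 to 0.292. Gstp-ps ranked 211, Prdx6 526 and Prdx6b 5227 from Gstp1. This measure also counts differences in the size of a change, so a distant rank does not mean an opposite direction. Prdx6b had a log2 fold change of −2.92 and Gstp1 of −1.76, both below 0. For Prdx6 the nearest genes were Ufd1 (a cofactor of protein degradation), Msrb2 (a methionine sulfoxide reductase), Gemin6 (a part of the complex that assembles spliceosomal particles), Psmb4 (a proteasome subunit) and Vnn1 (pantetheinase), at 0.151 to 0.272. Gstp-ps ranked 252 and Prdx6b 1111 from Prdx6. The points share library depth and composition, and the likeness is a description of these 6 libraries. The part that reads matching both Gstp1 and Gstp2 have in the likeness of that pair was not tested.

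Other genes of the pathway were taken from 7 lists with 85 tested genes, of which edgeR called 0. An unadjusted p under 0.05 was found for 11 of the 85, against 1458 (10.2%) of all 14301 genes tested. DESeq2 called 1 of the 85 higher in vitro and 3 lower, against 195 higher and 187 lower among all genes tested. Their log2 fold changes were above 0 for 46 genes and below 0 for 39, with a median of 0.05, against −0.01 over all genes tested. Scaling by library totals alone moved the median of all genes by −0.31.

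Beside the Gstp genes, the other glutathione transferases had fold changes on both sides of 0, 8 of 15 tested genes above it and 7 below, with a median of 0.06 that turned to −0.41 with library totals alone. Gstcd, a protein with a transferase-like domain, averaged 20.8 ± 14.6 CPM in vitro and 5.49 ± 1.90 CPM in vivo (log2 fold change 1.92 ± 0.69, SE). Mgst2, a microsomal transferase, had 0, 6 and 0 counts in vitro and 10, 33 and 59 counts in vivo. Gstz1, which acts in tyrosine breakdown, averaged 22.3 ± 11.4 CPM in vitro and 9.68 ± 4.43 CPM in vivo, with overlapping groups.

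Of 6 genes for the other peroxiredoxins and sulfiredoxin, 1 had a fold change above 0 and 5 below, with a median of −0.37 (−0.80 with library totals alone) against −1.65 for Prdx6. Prdx1, the main cytosolic peroxiredoxin, averaged 315 ± 67.8 CPM in vitro and 459.9 ± 32.9 CPM in vivo (log2 fold change −0.55 ± 0.29, SE), without overlap. Prdx4, of the endoplasmic reticulum, averaged 19.2 ± 11.5 CPM in vitro and 35.7 ± 11.9 CPM in vivo, and Prdx2 averaged 95.8 ± 3.25 CPM in vitro and 71.7 ± 20.8 CPM in vivo, both with overlapping groups. Whether Prdx6 differed between the groups by more than these genes was not tested.

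Glutathione synthesis and use supplies the substrate of GSTP and the reductant of PRDX6. Of 18 tested genes 7 had a fold change above 0 and 11 below, with a median of −0.52 (with library totals alone 2 above 0 and a median of −0.61), and in 5 the in vitro libraries lay below all in vivo libraries, against 10% of all genes. Gsr, the reductase that regenerates glutathione, averaged 31.6 ± 3.98 CPM in vitro and 71.7 ± 17.2 CPM in vivo (log2 fold change −1.18 ± 0.35, SE). Gclm, the modifier subunit of the enzyme that begins glutathione synthesis, averaged 6.32 ± 2.47 CPM in vitro and 29.1 ± 21.3 CPM in vivo (−2.20 ± 0.66, SE), and DESeq2 called it lower in vitro. Gpx1, the cytosolic glutathione peroxidase, averaged 306 ± 60.9 CPM in vitro and 518 ± 56.3 CPM in vivo (−0.76 ± 0.28, SE). For these 3 genes the groups did not overlap.

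In the list of thioredoxin, superoxide dismutase and catalase genes 7 of 10 had a fold change above 0, with a median of 0.36 that turned to −0.04 with library totals alone. Txnrd2, the mitochondrial thioredoxin reductase, averaged 1.31 ± 2.11 CPM in vitro and 7.23 ± 3.47 CPM in vivo, and Txnrd3 averaged 2.58 ± 2.41 CPM in vitro and 0.340 ± 0.589 CPM in vivo. Sod1, the cytosolic superoxide dismutase, averaged 82.3 ± 32.0 CPM in vitro and 106 ± 15.2 CPM in vivo. The SE of these 3 fold changes was 1.51, 1.97 and 0.36 on the log2 scale.

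NRF2, encoded by Nfe2l2, is the factor that acts through antioxidant response elements, and mouse Gstp1 is among its known targets. In the list of NRF2, its partners and targets 11 of 18 tested genes had a fold change above 0 and 7 below, with a median of 0.10 that turned to −0.16 with library totals alone. Nfe2l2 itself averaged 75.8 ± 17.1 CPM in vitro and 38.4 ± 6.07 CPM in vivo (log2 fold change 0.98 ± 0.35, SE). The ferritin chain genes Fth1 and Ftl1, which store iron and are known NRF2 targets, lay on the other side of 0. Fth1 averaged 169 ± 35.3 CPM in vitro and 407 ± 56.4 CPM in vivo (−1.27 ± 0.30, SE), and Ftl1 averaged 395 ± 145 CPM in vitro and 845 ± 58.1 CPM in vivo (−1.10 ± 0.32, SE). DESeq2 called Fth1, and limma-voom called Fth1 and Ftl1, lower in vitro.

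In the module of JNK, the kinase that GSTP binds, 7 of 8 tested genes had a fold change above 0, with a median of 0.63, and 5 of 8, with a median of 0.31, with library totals alone. Jun, the transcription factor that JNK phosphorylates, averaged 9.48 ± 5.76 CPM in vitro and 0.288 ± 0.432 CPM in vivo (log2 fold change 4.99 ± 1.49, SE), and DESeq2 called it higher in vitro. Map3k5, the kinase ASK1 upstream of JNK, averaged 12.6 ± 6.41 CPM in vitro and 4.59 ± 1.58 CPM in vivo, with overlapping groups. Mapk8, which encodes JNK1, averaged 10.8 ± 3.06 CPM in vitro and 4.32 ± 2.77 CPM in vivo, without overlap.

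Among 10 phospholipid-remodelling enzymes, which share lipid substrates with PRDX6, 5 had a fold change above 0 and 5 below, with a median of −0.07 (with library totals alone 2 above 0 and a median of −0.40). Lpcat3, a lysophospholipid acyltransferase, averaged 35.6 ± 22.8 CPM in vitro and 124 ± 8.60 CPM in vivo (log2 fold change −1.79 ± 0.46, SE), and DESeq2 called it lower in vitro. Lypla1, a lysophospholipase, averaged 117 ± 51.0 CPM in vitro and 48.0 ± 26.1 CPM in vivo (1.29 ± 0.52, SE), and Pla2g12a, a secreted phospholipase, averaged 17.8 ± 9.39 CPM in vitro and 37.3 ± 9.49 CPM in vivo. The groups overlapped for Pla2g12a and did not for Lpcat3 and Lypla1.

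**Figure D4:**
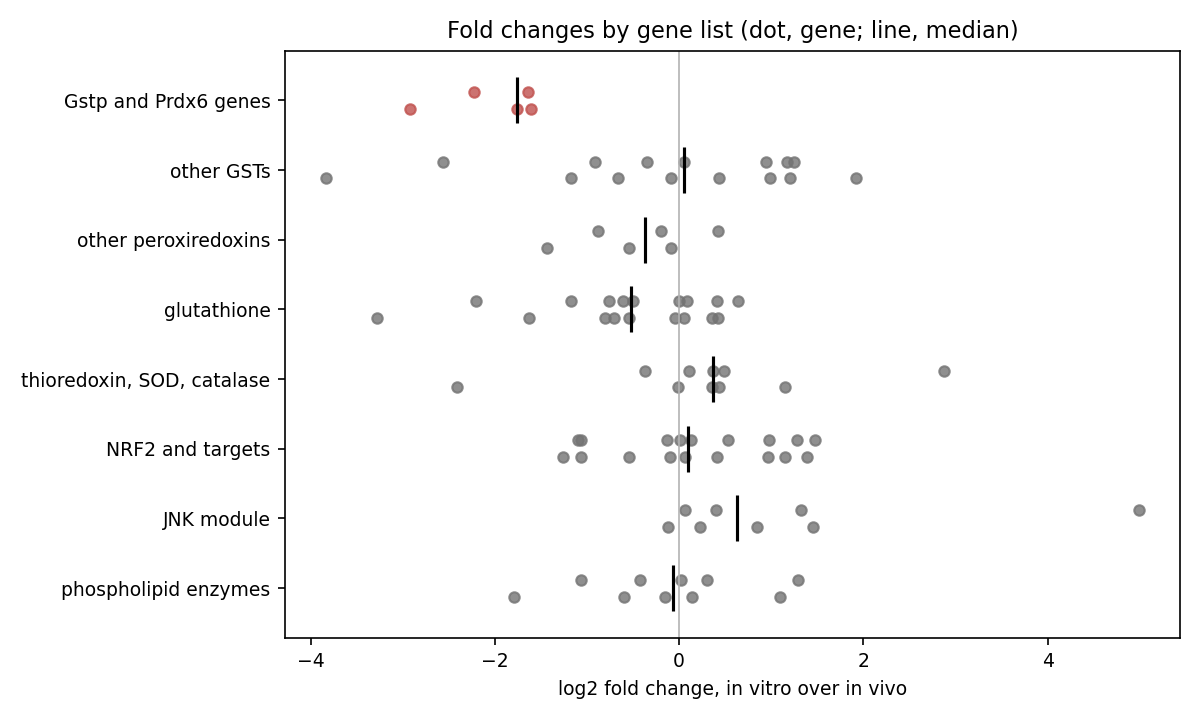
Log2 fold change, in vitro over in vivo, of each tested gene (dot) of the Gstp and Prdx6 set (red, 5 genes chosen for this contrast) and of the 7 pathway lists (grey), with a line at each median. The grey lists spread on both sides of 0, with medians from −0.52 for glutathione genes to 0.63 for the JNK module.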

How the data were processed

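Total RNA was taken with a microextraction kit, and libraries were made with a transposase kit, which leaves strand unmarked, per the labels. The authors deposited raw counts per gene for 49993 genes and 6 libraries. The submitters' processing notes list FastQC 0.11.2, DESeq2 and GRCm39, but coordinates in the deposited table equal RefSeq GRCm38.p6 for 49589 of 49589 genes compared, so GRCm38 is used. The sources used here do not give the aligner, the counter or its strand setting, and without strand a gene cannot be told from an antisense partner.

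Libraries were grouped by their titles. The deposited counts were fitted with edgeR 4.0.16 in R 4.3.3 after its filter by group (14301 genes) and TMM scaling, with a robust quasi-likelihood test (legacy, two-sided) and Benjamini-Hochberg adjustment over all genes tested at 0.05. CPM uses TMM-scaled totals of the tested genes, ribosomal RNA included, on which 3 counts are 0.216 to 0.527 CPM. Intervals and floors cover counting error only. DESeq2 1.42.0 and limma 3.58.1 (voom) were run beside it, and all fits were first tested on simulated data. Transcripts were compared with Biopython 1.88 in Python 3.11.15, and exact intervals come from scipy 1.17.1.

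The 6 genes and the 14 lists (178 symbols, 1 of them without a match in the table) were chosen with earlier results of these data known. Named were the 6 genes, up to 3 genes of smallest unadjusted p from each list (cell type lists are given as sums), the 5 genes nearest in profile to Gstp1 and to Prdx6 (mean of at least 10 CPM, prior count 2, no predicted genes or pseudogenes), neighbours with counts and other described copies, of which 1 gene is not reported here. Mos, Ltf, Sprr2f, Lcn2, Wfdc2, Foxa2 and Muc1 were named after their values were seen. Alternatives were the scaling, the filter, the tool, each library left out, a replicate block and summed copies. No library was a copy of another: the closest pair, in vivo replicates 1 and 2, differed with a chi-square of 31.5 per degree of freedom over 15224 genes.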

Additional observations from a re-analysis of the deposited data

How the results depend on the processing

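All 96 log2 fold changes of the 5 fitted genes and the family sums under alternatives stayed below 0, and 4 moved by at least 1 SD between replicates. For each of the 5 genes, 1 of these values is the main family sum in its place. The alternatives reuse the same libraries, and the genes were selected for a fold change below 0, so nothing is read from the count. With library totals alone Gstp-ps was at −2.60 and the Gstp sum at −2.47, and with the copies summed Gstp1 and Gstp2 were both at −2.12. The same summing put Prdx6b at −1.94, a move of less than its replicate SD of 1.30. Leaving out 1 library gave −1.96 to −1.43 for Gstp1, −1.87 to −1.26 for Gstp2, −2.41 to −2.05 for Gstp-ps, −1.88 to −1.35 for Prdx6, −3.49 to −2.48 for Prdx6b, −2.24 to −1.99 for the Gstp sum and −2.24 to −1.62 for the Prdx6 sum. The difference in share was −10.8 to −2.35 points for Gstp-ps and −20.2 to −10.6 points for Prdx6b. Over the table edgeR called 0 genes with all libraries and 0 without any 1 library, 391 genes with no filter on low counts (Gstp1, Gstp-ps, Prdx6 and Prdx6b among them), DESeq2 called 473 and limma-voom 102. In the lists of glutathione, NRF2, JNK and phospholipid genes, where edgeR called 0, DESeq2 called 1 each, limma-voom called 2 NRF2 genes, and edgeR with no filter called 1 JNK and 1 phospholipid gene. The causes of these changes were not tested. Same-numbered libraries did not deviate together over all genes tested, with correlations of −0.10, 0.10 and −0.04 for replicates 1, 2 and 3. Of the 3, 1 was closest to its own number. With 3 libraries a group, these values cannot settle whether the numbers pair libraries. With the replicate number as a block edgeR called 0 genes, and Gstp1 was at −1.71, Gstp-ps at −2.21, Prdx6 at −1.68 and Prdx6b at −2.93. The block lowered the SE from 0.41 to 0.31 for Prdx6 and from 0.75 to 0.36 for Prdx6b. It raised the SE from 0.40 to 0.44 for Gstp1, from 0.42 to 0.45 for Gstp2 and from 0.33 to 0.37 for Gstp-ps.

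Each group had 3 libraries, and the common biological coefficient of variation was 0.727, which bears on single rows and sums alike. Because the copies are near-identical in sequence, the split of counts among Gstp1, Gstp2 and Gstp-ps is less certain than their sum. How much less was not measured. Gstp3 did not pass the filter and has no fitted fold change, only the ratio of its summed counts. No sequence of the Gstp-ps row beyond the 631-base model was used here.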
